A study of Mus musculus with 12 samples.

Results

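Srebf1, Fasn, Acaca, Elovl5 and Lpcat3 are 5 lipogenic genes, followed here through every RXR and H3K27ac peak whose deposited gene name is one of them, at any distance to the transcription start site (TSS). They are 5 of the 14490 genes named in the 12 peak lists, and their peaks number 80 of 76731: 37 of 10124 RXR peaks and 43 of 66607 H3K27ac peaks. The lists come from chromatin immunoprecipitation and sequencing (ChIP-seq) in wild type E14 mouse embryonic stem (ES) cells, grown without feeders in medium with leukemia inhibitory factor, and in cells derived from them. RXR, the retinoid X receptor, and H3K27ac, acetylated lysine 27 of histone H3 and a mark of active promoters and enhancers, were each mapped in control ES cells and after 24 h with GW3965, an agonist of the liver X receptor (LXR), LG268, an RXR agonist, or RA, all-trans retinoic acid, the ligand of the retinoic acid receptor. Each ligand was at 1 µM and the vehicle was dimethylsulfoxide. Later RXR libraries, 2 at day 8 and 2 at day 16, came from cells aggregated into embryoid bodies without leukemia inhibitory factor and driven to a neural fate by RA at 5 µM. Every other group is 1 library, so no test between treatments was possible.

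Cells make fatty acids from acetyl-CoA in steps that these genes encode or control. Srebf1 encodes the transcription factor SREBP1, which switches on lipogenic enzymes, and an internal promoter of the gene gives the SREBP-1c form that LXR is known to induce in mouse liver. Acaca encodes acetyl-CoA carboxylase, which makes malonyl-CoA, and Fasn encodes fatty acid synthase, which builds palmitate from it. Elovl5 elongates polyunsaturated fatty acids, and Lpcat3 places polyunsaturated chains into phospholipids. LXR binds DNA as a heterodimer with RXR, typically at direct repeats of a half-site with a spacer of 4 bases (DR4), and Srebf1, Fasn and Lpcat3 are known LXR targets in mouse.

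The promoter sequences of Srebf1 and Fasn are shown because an RXR peak overlapped them in all 8 RXR lists. Each is the 250 bases before a RefSeq start site (GRCm38.p6, minus strand, 5′ to 3′), and the capitals mark the half-sites of a direct repeat that reads in its usual orientation on the opposite strand. The Srebf1 stretch lies at chr11:60210472-60210721, before the innermost of 3 start sites in the RefSeq table, and the Fasn stretch lies at chr11:120824548-120824797. The Abca1 stretch (chr4:53159896-53160145) is shown because it holds the same repeat. Abca1 encodes a cholesterol exporter and is also a known LXR target.
Srebf1: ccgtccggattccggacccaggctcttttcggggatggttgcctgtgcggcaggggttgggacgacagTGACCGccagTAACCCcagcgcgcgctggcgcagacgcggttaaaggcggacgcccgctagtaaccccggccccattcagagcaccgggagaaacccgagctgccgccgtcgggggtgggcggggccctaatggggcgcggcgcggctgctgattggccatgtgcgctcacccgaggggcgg
Fasn: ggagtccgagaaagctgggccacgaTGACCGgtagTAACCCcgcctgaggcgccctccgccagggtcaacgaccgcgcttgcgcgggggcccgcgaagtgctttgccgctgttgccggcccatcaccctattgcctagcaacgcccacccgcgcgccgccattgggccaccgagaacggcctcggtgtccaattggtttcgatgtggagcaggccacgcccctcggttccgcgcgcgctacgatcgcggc
Abca1: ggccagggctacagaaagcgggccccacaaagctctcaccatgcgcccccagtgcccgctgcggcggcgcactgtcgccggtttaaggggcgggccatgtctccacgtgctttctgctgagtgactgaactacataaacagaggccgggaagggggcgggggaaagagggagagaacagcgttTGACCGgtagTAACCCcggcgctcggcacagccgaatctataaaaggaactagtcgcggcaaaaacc

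Read on the plus strand, with the spacer in lower case, the repeats are as follows.
Srebf1 repeat: GGGTTActggCGGTCA
Fasn repeat: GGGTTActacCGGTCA
Abca1 repeat: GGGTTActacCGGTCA
The Fasn and Abca1 repeats were the same in every base, and the Srebf1 repeat differed from them only within the spacer. The repeat centre lay 174.5 bp before the Srebf1 start site, 217.5 bp before that of Fasn and 59.5 bp before that of Abca1. The letters GGGTTANNNNCGGTCA, taken from the Srebf1 and Fasn windows after these were seen, occurred on either strand in 3 of 32851 RefSeq promoter windows of 300 bases (0.00913%), and the third was Abca1. Against 2 copies of AGGTCA both member repeats have 3 mismatches in 12 bases. No window of the 5 genes held a DR4 with at most 2 mismatches, which 3.02% of all windows did, and 21.9% of all windows held one with at most 3. Of the spacers searched, only a spacer of 0 gave a match with at most 2 mismatches in member windows. It was found in 2 of 7, those of Elovl5 and Acaca, against 3.05% of all windows. Neither of these windows covers an RXR site of its gene. GGGTTACT, the first half-site with the start of the spacer and likewise taken from these windows, so that 1 copy in each was given, occurred 2 times in the Srebf1 window and 1 time in that of Fasn. One copy or more was found in 0.554% of all windows and 2 or more in 0.0122% (4 windows). A match of letters is a description and not a measured site.

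The centres of the RXR peaks lay close to these repeats in every list. At Srebf1 the 8 peak centres were 9.5 to 38 bp from the centre of the repeat, with a median of 16.75 bp. At Fasn they were 7.5 to 60.5 bp away, with the same median. At Abca1 the 7 lists with a peak, all but day 16 replicate 1, had centres 9.5 to 118 bp away, with a median of 37 bp. Peak widths at Srebf1 ran from 102 to 454 bp and at Fasn from 182 to 485 bp, and every one of these peaks contained the centre of the repeat.

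**Figure D1:**
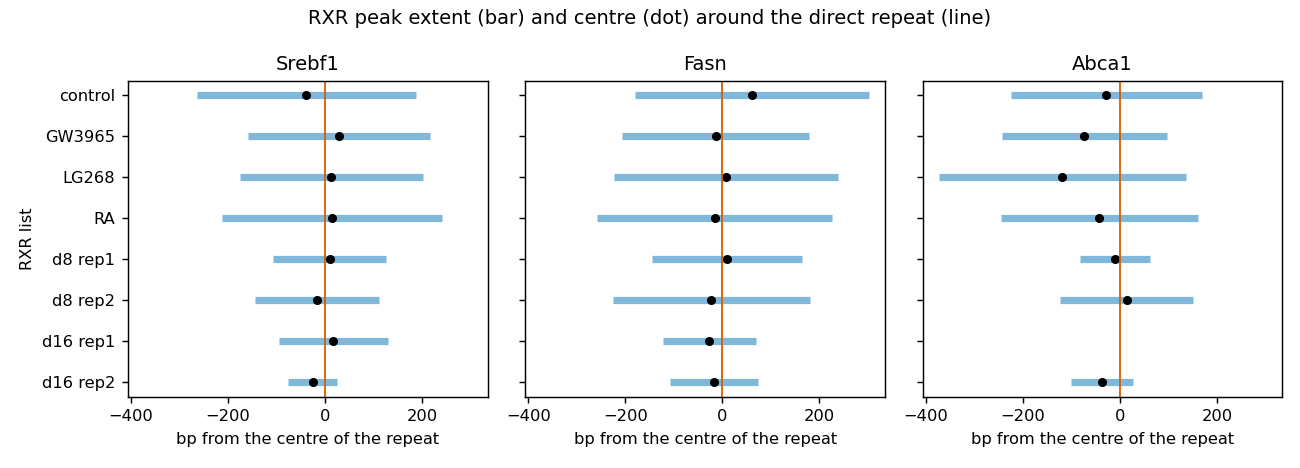
RXR peaks around the direct repeat at Srebf1, Fasn and Abca1, with the distance from the centre of the repeat in bp on the x axis and the 8 RXR lists on the y axis. Bars span each called peak and dots mark its centre; the centres at Srebf1 and Fasn lie within 60.5 bp of the repeat in every list.

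The lists held 940 to 2089 RXR peaks in ES cells, 1154 and 2044 at day 8 and 429 and 409 at day 16, and 12472 to 21418 H3K27ac peaks. They give no read totals, so depth is unknown and a missing peak means only that none was called. The authors' score has no stated scale between libraries. Peak height is therefore given as the rank by score and as the relative rank, the rank as a percentage of the list, where a low percentage is near the top. A higher share of cells bound and a stronger signal per cell cannot be told apart. The labelled cell type was compared with H3K27ac within 10 kb of marker genes. Of 10 ES markers 4 to 6 had a peak, Sox2, Nanog and Utf1 in every list and Pou5f1 in the control and GW3965 lists. Of 6 neural markers 1 to 3 had a peak, with Map2 in every list. Of 3 endoderm markers 0 to 2 had one, Sox17 and Foxa2 in every list but LG268. No mesoderm or hepatocyte marker had a peak. No share over all genes was taken, so these counts do not settle the cell type. The day 8 and day 16 lists, which the labels also call embryonic stem cells, have no H3K27ac list to compare.

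RXR peaks named 4 of the 5 genes in the control, LG268 and RA lists and 3 with GW3965, where 6.89%, 12.4%, 11.9% and 5.99% of all genes were named. At day 8 they named 4 and 5 of the genes in replicates 1 and 2, where 6.31% and 10.8% of all genes were named. At day 16 they named Srebf1 and Fasn in both replicates, where 2.33% and 2.19% of genes were named, and 1.78% in both. The peaks fell into 9 distinct sites by an overlap of at least 1 bp. Both Srebf1 and Fasn had a site in all 8 lists, as had 2.15% of the 5014 RXR regions of the series. Outside simple repeats, satellites and the like, which fill much of the short lists, 0.485% of regions were found in all 8. With a reciprocal overlap of 50%, which splits the peaks into 11 sites, 1 site was in all 8 lists. A further site, upstream of Elovl5, was in all 4 ES lists, so 3 sites were (4.35% of all regions). In both day 8 lists there were 6 sites (19.5%), in both day 16 lists 2 (5.74%) and in the control list 5 (21.6%). For 3 sites there was a differentiation peak and no ES peak, and the share over all regions was not taken. Those in Acaca and in the Fasn 5′ UTR were in both day 8 lists and no ES list, as were 8.20% of all regions.

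**Figure D2:**
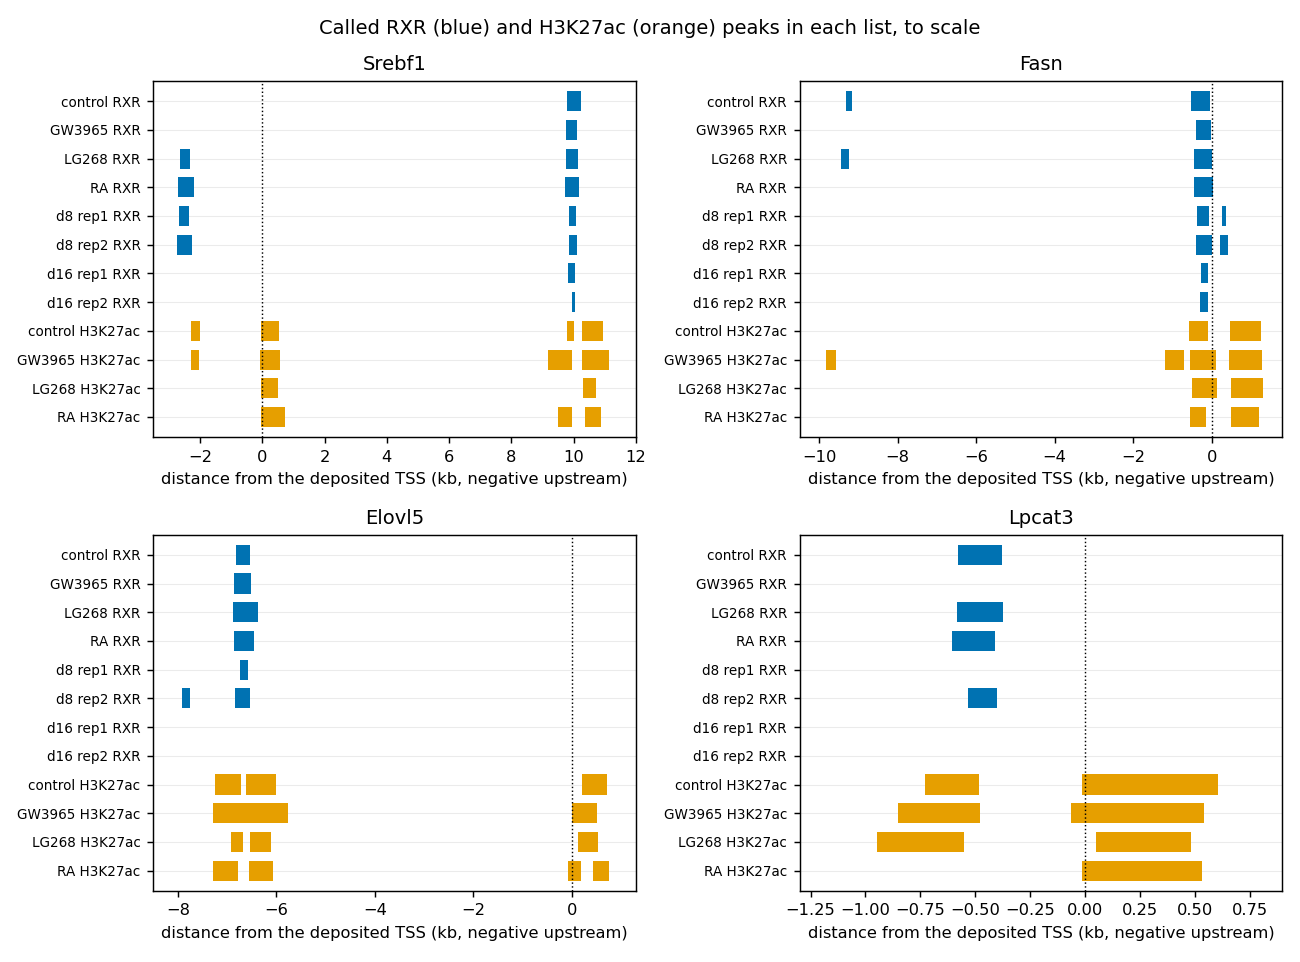
Called RXR peaks (blue, 8 lists) and H3K27ac peaks (orange, 4 lists) at Srebf1, Fasn, Elovl5 and Lpcat3, drawn to scale against the distance from the deposited TSS in kb. The Srebf1 intron site and the Fasn promoter site are present in every RXR list, and the Elovl5 upstream site is absent from both day 16 lists.

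Srebf1, the regulator, carried 2 RXR sites. The constant one lay in intron 1 of 18 of the annotated transcript, 9930 to 9997 bp downstream of its TSS, and carried the annotation of a CpG island (chromosome 11, 60210381 to 60210886 over all lists). This is the stretch with the repeat before the internal start site. Its score was 54.6 in the control, 33.5 with GW3965, 70.1 with LG268 and 51.1 with RA. It ranked 21 of 1089, 17 of 940, 24 of 2089 and 36 of 1970, a relative rank of 1.93%, 1.81%, 1.15% and 1.83%. The 4 ES values thus lay within a narrow range near the top. At day 8 it ranked 364 of 1154 and 221 of 2044, a relative rank of 21.2% ± 14.7 (SD, n = 2). At day 16 it ranked 236 of 429 and 393 of 409, or 75.5% ± 29.0 (SD, n = 2), with scores of 13.8 and 2.90. Outside repeats it ranked 63 of 212 (29.7%) and 190 of 205 (92.7%). The day 16 replicates were thus far apart, and both lay lower in their list than any ES value.

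The other Srebf1 site lay at -2434 to -2517 bp from the deposited TSS (chromosome 11, 60222785 to 60223327). The deposited annotation calls it intergenic, while the RefSeq gene body (60199084 to 60224186) contains it. No peak was called there in the control or GW3965 lists or at day 16. It had a score of 6.72 with LG268 (rank 1061 of 2089) and 5.63 with RA (rank 1347 of 1970). At day 8 the scores were 12.3 and 31.0 (ranks 453 of 1154 and 295 of 2044). In day 8 replicate 1 this site and the Elovl5 upstream site had the same score. Its relative rank was 39.3% and 14.4% at day 8 (26.8% ± 17.6, SD, n = 2), against 50.8% with LG268 and 68.4% with RA, so both day 8 values lay nearer the top than either ES value.

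Fasn, the synthase, carried the highest-ranked of the 9 sites in 5 lists: control, GW3965, RA, day 8 replicate 1 and day 16 replicate 2. The site lay at -190 to -278 bp from the TSS (chromosome 11, 120824507 to 120825066, promoter). Its score was 59.0 in the control, 44.4 with GW3965, 75.4 with LG268 and 79.3 with RA. The ranks were 19, 12, 21 and 17, or a relative rank of 1.74%, 1.28%, 1.01% and 0.863%. The 4 ES values thus lay close together near the top of their lists. At day 8 it ranked 289 of 1154 and 102 of 2044 (15.0% ± 14.2, SD, n = 2) and at day 16 it ranked 241 of 429 and 205 of 409 (53.1% ± 4.28, SD, n = 2). Simple repeats, satellites and the like made up 217 of 429 and 204 of 409 day 16 peaks, and outside them the Fasn ranks were 66 of 212 and 50 of 205. Their part in the lower day 16 ranks was not tested.

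Both day 8 lists also had a separate Fasn peak in the 5′ UTR, in exon 1 of 43, which no ES or day 16 list had. It lay 316 and 301 bp downstream of the TSS in replicates 1 and 2, with scores of 5.57 and 17.6. Of all RXR regions 8.20% were in both day 8 lists and in no ES list. A low-scoring Fasn site at -9243 to -9344 bp, in an intron of a neighbouring transcript, was called in the control (score 3.93, rank 1010 of 1089) and with LG268 (6.13, rank 1188 of 2089). The deposited annotation puts the control peak in a SINE and the LG268 peak in a LINE, and their centres were 101.5 bp apart.

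Acaca, the carboxylase, had no RXR peak in any ES list or at day 16 under the deposited gene names. Both day 8 lists had a peak in intron 24 of 53, 81759 and 81762 bp from the TSS (chromosome 11, 84277110 to 84277290), low in the list with scores of 6.08 and 5.65 and a relative rank of 79.2% ± 3.94 (SD, n = 2). The RefSeq gene body is longer than the deposited TSS implies (chromosome 11, 84129635 to 84401651), and peaks inside it were assigned to other genes. These were an RXR site named for Gm11437, found with LG268 (score 16.3, rank 269), RA (5.39, rank 1393) and in day 8 replicate 2 (30.1, rank 306), and a site in intron 50 of 53 named for Aatf in both day 8 lists (16.6 and 10.1). An H3K27ac peak named for Gm11437 ranked 1987 of 21418 in the control, 654 of 17759 with GW3965, 1953 of 12472 with LG268 and 2428 of 14958 with RA. Such peaks are not counted among those of Acaca.

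Elovl5, the elongase, had the site whose relative rank differed most between the control and the ligand lists. It lay at -6633 to -6683 bp from the TSS, annotated as a CpG island (chromosome 9, 77910478 to 77910986), and the 6 peak centres fell within 50 bp of each other. Its score was 8.82 in the control, 21.7 with GW3965, 77.1 with LG268 and 48.1 with RA. The ranks were 439 of 1089, 32 of 940, 20 of 2089 and 40 of 1970. The relative rank was thus 40.3% in the control and 3.40%, 0.957% and 2.03% with GW3965, LG268 and RA, from 1 library each. Set as ratios, it stood 11.8 times higher with GW3965, 42.1 times higher with LG268 and 19.9 times higher with RA.

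These ratios were read against all RXR regions called both in the control and with the ligand. Of 246 such regions with GW3965, 1.22% stood at least 10 times higher, and none stood further up than the Elovl5 site. Of 782 with LG268, 0.512% did and again none exceeded it. Of 777 with RA, 1.03% did and 1 region exceeded it. The median ratio over all shared regions was 0.631, 1.60 and 1.40. The 3 comparisons share the 1 control list, so they are not independent. With each ES list limited to its 940 highest peaks the ratios were 13.7 for GW3965, 21.9 for LG268 and 11.0 for RA, which changes the order of GW3965 and RA, and among peaks outside repeats they were 18.8, 211 and 37.1 for GW3965, LG268 and RA. No other member site shared with the control reached 10 times. The Fasn promoter and Srebf1 intron sites already ranked 19 and 21 of 1089 in the control. A region that stood above both in the control still stood over 10 times higher with LG268 and RA, and lower with GW3965. Whether the high start of the Fasn and Srebf1 sites limited their ratios was not tested. Their ratios are therefore not set against that of Elovl5 as a response to ligand. The Fasn promoter stood 1.37, 1.74 and 2.02 times higher with GW3965, LG268 and RA, and the Srebf1 intron site 1.07, 1.68 and 1.06 times.

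At day 8 the Elovl5 site ranked 453 of 1154 in replicate 1 and 73 of 2044 in replicate 2, or 21.4% ± 25.2 (SD, n = 2). Replicate 1 (39.3%) was thus close to the control value and replicate 2 (3.57%) close to the GW3965 value. No Elovl5 peak was called at day 16. A second peak, at -7838 bp, was called in day 8 replicate 2 alone (score 9.41).

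Lpcat3, the phospholipid enzyme, had 1 RXR site under the deposited gene names, at -467 to -507 bp from the TSS (chromosome 6, 124662499 to 124662730, promoter). It was called in the control (score 11.8), with LG268 (11.3, rank 475 of 2089), with RA (7.60, rank 876 of 1970) and in day 8 replicate 2 (11.1, rank 904 of 2044). The relative rank was 25.3%, 22.7%, 44.5% and 44.2%. A further RXR peak in intron 1 of Lpcat3, with LG268 (rank 1540 of 2089), and a control H3K27ac peak there (rank 20692 of 21418) were assigned to Emg1. No RXR peak was called at the promoter site with GW3965, in day 8 replicate 1 or at day 16. The site lies upstream of the RefSeq promoter window, whose letters therefore do not cover it.

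**Figure D3:**
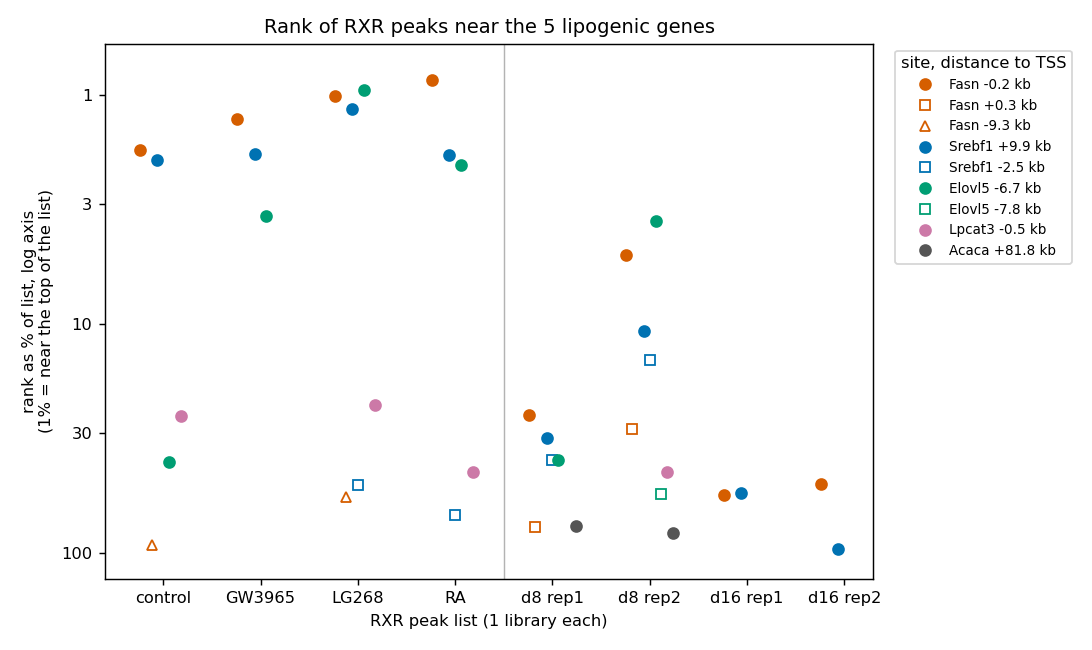
Rank of each RXR site as a percentage of its list (y axis, log scale, top of the list upward) in the 8 RXR lists (x axis), 1 point per called peak and no point where none was called. The Fasn promoter and Srebf1 intron sites stay between 0.863% and 1.93% in ES cells and lie lower at both days, and the Elovl5 upstream site moves from 40.3% in the control to 0.957% with LG268.

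Acetylation marked the same genes. H3K27ac peaks named Srebf1, Fasn, Elovl5 and Lpcat3 in all 4 lists, where 88.4%, 80.7%, 65.3% and 72.8% of all genes were named with control, GW3965, LG268 and RA, so this share is near the background, and 56.9% were named in all 4. Acaca had 1 H3K27ac peak, with RA (score 2.79, rank 14677 of 14958). The 43 peaks fell into 13 regions, of which 7 were found in all 4 lists. The share over all H3K27ac regions was not taken, so this count has no background beside it. Of the 19 RXR peaks of the members in ES lists, 13 overlapped an H3K27ac peak of the same treatment. By list these were 4 of 5 in the control, 3 of 3 with GW3965, 3 of 6 with LG268 and 3 of 5 with RA, where 32.0%, 18.2%, 24.5% and 27.8% of all RXR peaks overlapped one. Against the control H3K27ac list, which is longer (21418 peaks against 14958 with RA), the count was 5 of 5 for RA and 4 of 6 for LG268. The share of all RXR peaks that overlap the control list was not taken.

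The RXR peak at Elovl5 sat between acetylated stretches. In the control its centre lay in a gap of 110 bp between H3K27ac peaks, 41 bp from one and 69 bp from the other. The gap was 138 bp with LG268 and 209 bp with RA, while with GW3965 a single H3K27ac peak of 1508 bp covered the whole stretch. At the Srebf1 intron the centre lay between H3K27ac peaks with GW3965 (gap 349 bp) and RA (gap 410 bp), inside one in the control, and beside one only with LG268. In these gaps the centre was at the edge of the nearer peak, at 1 against 348 bp with GW3965 and 7 against 403 bp with RA. At the Fasn promoter the centre lay inside an H3K27ac peak in all 4 conditions. A centre inside an H3K27ac peak was found for 2 member peaks in the control, 2 with GW3965, 1 with LG268 and 1 with RA, against 24.1%, 13.6%, 18.1% and 19.8% of all RXR peaks. An uncovered centre with H3K27ac within 500 bp on both sides was found for 2 member peaks in the control, 1 with GW3965, 1 with LG268 and 2 with RA, against 3.21%, 1.70%, 1.63% and 2.84% of all RXR peaks. This measure was chosen after the values were seen.

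The H3K27ac lists differ in length, so relative ranks were also compared with every list limited to the 12472 peaks of the shortest, a setting added after the data were seen. At the Elovl5 upstream region the highest acetylation peak ranked 2665 of 21418 in the control (12.4%), 3251 of 17759 with GW3965 (18.3%), 684 of 12472 with LG268 (5.48%) and 886 of 14958 with RA (5.92%). It thus stood 2.27 times higher with LG268 and 2.10 times higher with RA, where 250 of 10778 and 498 of 12436 shared regions had a larger ratio, and lower with GW3965 (ratio 0.680). At equal length these ratios were 3.90, 3.01 and 0.820, beside medians of 1.01, 0.994 and 1.00 over all shared regions. Each rests on the highest peak of the region. A lower peak on the other side of the RXR centre was called in the control, LG268 and RA lists. Its relative rank went the other way, at 53.0% in the control, 70.6% with LG268 and 85.8% with RA. Its plain ranks were 11359, 8802 and 12830, so its direction with LG268 depended on list length. At the Srebf1 intron the region downstream of the RXR site ranked 7550 in the control (35.3%) and 2108 with GW3965 (11.9%), a ratio of 2.97 that 176 of 14126 regions exceeded. The region on the other side of the site had a ratio of 2.51 with GW3965. At equal length these were 3.58 and 3.02, and 159 and 284 of 9785 regions had a larger ratio. That downstream region was at 62.0% with LG268 and 76.5% with RA, while its plain rank was 7550 in the control, 7728 with LG268 and 11438 with RA.

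The region at the annotated Srebf1 TSS was at 8.72% in the control, 17.0% with GW3965, 54.2% with LG268 and 28.9% with RA. The Fasn promoter region was at 4.54% in the control, 12.5% with GW3965, 18.5% with LG268 and 4.80% with RA, and the Fasn intron 1 region at 21.3%, 10.5%, 28.7% and 25.4%. At equal length the Srebf1 TSS ratios were 0.619, 0.276 and 0.432 with GW3965, LG268 and RA, below 1 as at full length. The Fasn promoter ratios were 0.439, 0.422 and 1.36, so its direction with RA depended on list length. The Fasn intron ratios were 2.44, 1.28 and 1.20, so their directions with LG268 and RA did as well. Of the member regions shared with the control, none of 10 with GW3965, 2 of 8 with LG268 and 1 of 8 with RA stood at least 3 times lower, where 4.31%, 14.9% and 9.20% of all shared regions did. At full list length none stood at least 3 times higher, where 1.21%, 1.00% and 1.63% did. The members' median ratio was 1.00, 0.656 and 0.708, beside 0.866, 0.653 and 0.750 over all shared regions. With 1 library per treatment, and 1 control list shared by all 3 comparisons, these ratios have no replicate error.

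**Figure D4:**
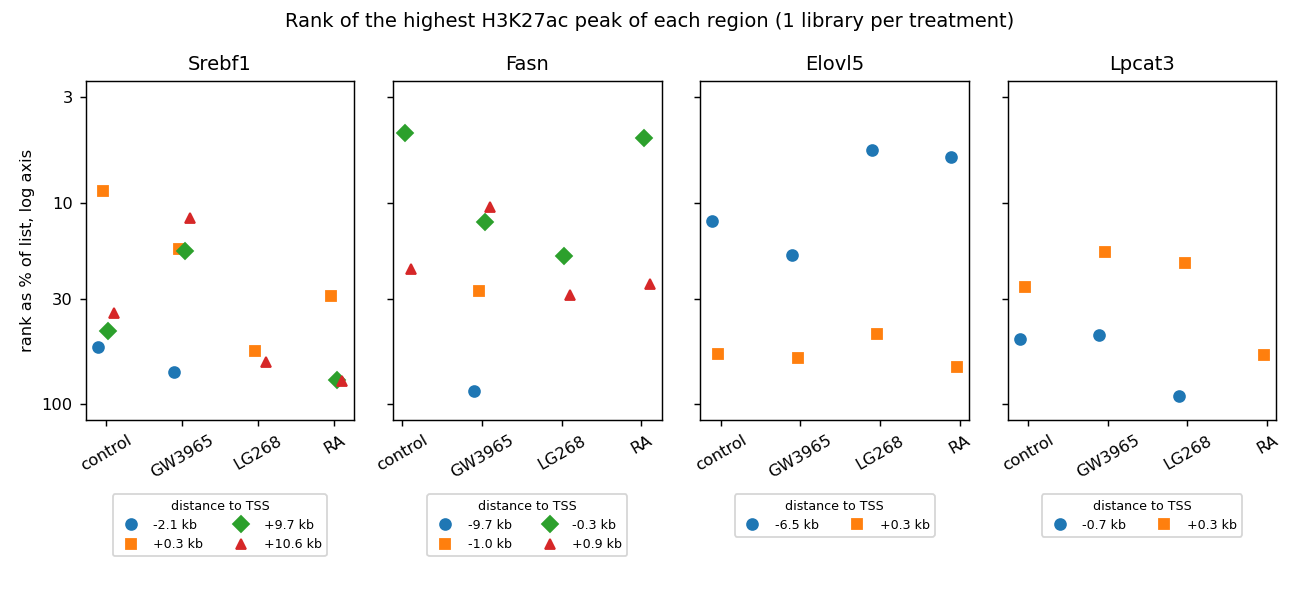
Rank of the highest H3K27ac peak of each region as a percentage of its list (y axis, log scale, top of the list upward) in the 4 ES lists (x axis), for Srebf1, Fasn, Elovl5 and Lpcat3, labelled by distance to the deposited TSS. The Elovl5 upstream region is at 5.48% with LG268 and 5.92% with RA against 12.4% in the control, and both Srebf1 intron regions are highest with GW3965 among the lists in which they were called.

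At Lpcat3 the acetylated region just downstream of the TSS was at 26.1% in the control, 17.6% with GW3965, 19.9% with LG268 and 57.2% with RA. The region upstream of it, which overlaps the RXR site, was called in the control, GW3965 and LG268 lists and not with RA. At the Elovl5 TSS the relative rank of the highest peak was between 45.0% and 65.2% in the 4 lists. A second RA peak there was at 97.2%. At equal length the ratios of the highest peak were 1.16, 2.16 and 1.24 with GW3965, LG268 and RA.

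A list of 44 other genes of the pathway was set beside the members. Of these, 14 were named by an RXR peak in at least 1 of the 8 lists (31.8%, against 25.1% of all genes). Only 37 of the 44 were named by any RXR or H3K27ac peak, while every gene behind the shares of all genes was. Counts out of 44 and those shares are therefore not on the same footing. In each of the 4 ES lists 7 of the 44 were named, where 6.89%, 5.99%, 12.4% and 11.9% of all genes were with control, GW3965, LG268 and RA. Those named in all 4 ES lists were the desaturase genes Scd1, Scd2 and Scd3 and Mboat2, a lysophospholipid acyltransferase gene (4 genes, where 1.76% of all genes were). Scd2 and Scd3 were named in all 8 lists, as were 0.787% of all genes. The Scd1, Scd2 and Scd3 sites are neighbours on chromosome 19, between positions 44248080 and 44388985. Gpam, which starts glyceride synthesis, had a peak 676 to 698 bp from its TSS in the control (rank 493), with LG268 (521) and with RA (1534). Of the 12 elongation and desaturation genes, Elovl6 had a peak with GW3965 alone (rank 313), Fads1 with RA alone and Fads2 in the control alone. Mid1ip1, an activator of acetyl-CoA carboxylase, had peaks with LG268, RA and in day 8 replicate 2, and Thrsp 1 low peak in the control (rank 1062 of 1089). Insig1 and Rxra had a peak with GW3965 alone, Lpcat1 with LG268 alone and Lpin1 in day 8 replicate 2 alone. The other genes of the list had none.

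Across the 8 RXR lists, the genes most like each member were those with the smallest mean absolute difference in relative rank, on a scale where 1 is the top of a list and 0 is no peak, among 3516 genes with peaks outside repeats. For Fasn these were Scd2 (0.0409), Scd3 (0.0438) and Iqck (0.0642), beside a median of 0.745 over all genes. For Srebf1 they were Scd1 (0.0453), 4930522O17Rik (0.0731) and Cpt1a (0.0746), with a median of 0.673. For Elovl5 they were Snora31 (0.0953), Abcg1 (0.0982) and 1700001O22Rik (0.103), all with peaks in 6 lists and all farther away than the nearest genes of Fasn and Srebf1. In the control these stood at 0.950, 0.986 and 0.971, against 0.598 for Elovl5, so they did not share its low control value. For Lpcat3 the nearest genes were Casd1 (0.0442), Zfp768 (0.0512) and Gins2 (0.0537), and for Acaca, with peaks in 2 lists, Lrrc7 (0.00226), Phactr2 (0.00966) and Lca5 (0.0106). Outside repeats, 8 of 4741 RXR regions (0.169%) were in the upper 5% of all 4 ES lists. These were the Srebf1 intron and Fasn promoter sites and sites named for Abcg1, Cpt1a, Scd1, Scd2, Scd3 and 4930522O17Rik.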

How the data were processed

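RXR was mapped in 8 libraries and H3K27ac in 4, with 1 peak list each. MACS2 2.0.10, HOMER 4.2 and BWA 0.6.0 appear in the submitters' processing notes with no role given, beside the builds mm9 and mm10. The file headers state mm10 for the annotation. Each peak's score, distance to the TSS (bp), location class and nearest gene are the authors' deposited values, and the score is used only to rank peaks within a list. One list per library was deposited. The labels do not say that replicates came from separate cultures.

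Peaks of all RXR lists, or all H3K27ac lists, that overlapped by at least 1 bp were joined into sites. Relative rank is 100 times rank over list length. Peaks called repeats here lie on mitochondrial DNA or carry an rRNA, satellite, simple-repeat or low-complexity label. Direct repeats of AGGTCA with spacers of 0 to 8 bases were searched on both strands of 32851 RefSeq promoter windows (GRCm38.p6, 250 bases before to 50 after a start). Merging, overlap and motif search were tested on simulated data and found all 300 planted overlaps and all 200 planted repeats.

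The members and gene lists were chosen with earlier results of these data known. Named genes are the members, the genes of the pathway list with an RXR peak, and the 3 genes nearest each member in rank pattern, beside the cell type markers found in the lists. Abca1, the genes whose peaks lie inside member gene bodies and those in the upper 5% of all ES lists were named after their values were seen. Tools were matplotlib 3.10.9, scipy 1.17.1, pandas 2.3.3 and numpy 2.4.6 under Python 3.11.15.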

Additional observations from a re-analysis of the deposited data

How the results depend on the processing

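Under 50% reciprocal overlap, 1 site was in all 8 RXR lists and 1 in both day 16 lists. With only the upper 50% of each list, 0 sites were in all 8 lists, 0 in both day 16 lists and 0 members had a peak in day 16 replicate 1 or replicate 2, and the H3K27ac peaks of the members fell to 5 with LG268 and 4 with RA, since fewer peaks are counted. Against the longer control H3K27ac list, 5 RA and 4 LG268 peaks lay in acetylated regions, with no share of all RXR peaks taken. Ranked outside repeats, the Elovl5 upstream site stood 18.8 (GW3965), 211 (LG268) and 37.1 (RA) times higher than in the control, and with ES lists of equal length 13.7 (GW3965), 21.9 (LG268) and 11.0 (RA) times. With H3K27ac lists of equal length 5 ratios over the control crossed 1, to 1.16 (Elovl5 TSS, GW3965), 1.24 (Elovl5 TSS, RA), 1.28 and 1.20 (Fasn intron 1, LG268 and RA) and 1.36 (Fasn promoter, RA), because the control list is the longest. With at most 3 mismatches, 2 promoter windows of the members held a DR4 (Srebf1 and Fasn). With H3K27ac within 1 kb on both sides, 2 uncovered LG268 peaks were counted. Leaving out a day 8 replicate gave 6 to 8 sites, and leaving out a day 16 replicate gave 2 each time. Relative ranks of single sites outside repeats moved beyond the counting interval in 35 of 37 cases. No paired analysis was possible because no result comes from a test between samples. The planned search for direct repeats around peak centres needs a genome sequence and was left out; promoter windows took its place after the data were seen. Read depth, which the lists do not give, limits every statement on a missing peak.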
